A study of Mus musculus with 6 samples.

Results

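The transcripts described here are 33 genes whose RNA marks the epithelium of the lung: 10 genes of alveolar type 2 cells and surfactant, 7 of airway secretory cells, 4 of alveolar type 1 cells, the ciliated cell regulator Foxj1, 9 genes of epithelia in general and 2 epithelial transcription factors. They were picked by symbol out of 23091 measured symbols, and each had 1 entry of status OK in every library. The list holds known lung epithelial genes and was selected on these same libraries, with their in vivo and day 3 FPKM in view, so the levels below are a description and carry no test. No numeric threshold set the list.

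RNA was sequenced from CD4 T cells of wild-type C57/Bl6j mice aged 7 weeks. Naive cells from spleen and lymph nodes were driven toward the Th9 helper state by TGFβ (2 ng/ml) and IL-4 (20 ng/ml) with interferon γ blocked, while plate-bound anti-CD3 and anti-CD28 stimulated them. There are 6 libraries, 1 in each group: cells given 10 ng/ml IL-1β and cells given none, at 1 h, at day 3, and in vivo. The last 2 libraries came from CD45.2 cells that were transferred into CD45.1 hosts once cultured for 3 days and sorted 1 week afterwards. The labels name neither the tissue these cells were taken from nor how many mice were used. The 1 h libraries came from rRNA-depleted RNA and the other 4 from poly(A)-selected RNA.

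The lung surface is lined by a few epithelial types. Alveolar type 2 cells make surfactant, the lipid and protein film that keeps air sacs open, and thin type 1 cells carry gas exchange. Airway secretory (club) cells release secretoglobins and detoxify inhaled compounds, and ciliated cells move mucus. Genes such as Sftpc and Scgb1a1 are transcribed almost only in these cells.

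Epithelial RNA was abundant in both in vivo libraries and scarce at day 3 of culture. The values are the authors' FPKM, fragment counts corrected for transcript length and library size, each with a deposited interval of unstated level. The 33 transcripts summed to 19130 FPKM in vivo with IL-1β and 7369 FPKM in vivo without it, against 67.3 FPKM at day 3 with IL-1β and 61.2 FPKM at day 3 without. That is 5.20% and 2.04% of all FPKM in vivo with and without IL-1β, and 0.0164% and 0.0170% at day 3 with and without it. Sftpc and Scgb1a1 held 82.2% and 84.8% of the in vivo sums, and their FPKM lay above their own intervals in both in vivo libraries. With IL-1β these were 6770 to 7159 FPKM for Sftpc and 2572 to 2908 FPKM for Scgb1a1. The in vivo sums and shares are uncertain to that extent. In the 1 h libraries 30 of the 33 were listed at 0 with IL-1β and 32 of 33 without, and those above 0 did not exceed 2.52 FPKM. Over all symbols, only 765 and 631 reached 5 FPKM at 1 h with and without IL-1β, against 7313 and 7638 at day 3. A set of 14 T cell identity genes summed to 138 and 108 FPKM at 1 h, against 3827 and 3595 FPKM at day 3. A listed 0 at 1 h therefore says little about epithelial RNA. In bulk RNA, more cells of a type and more RNA per cell cannot be told apart.

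**Figure D1:**
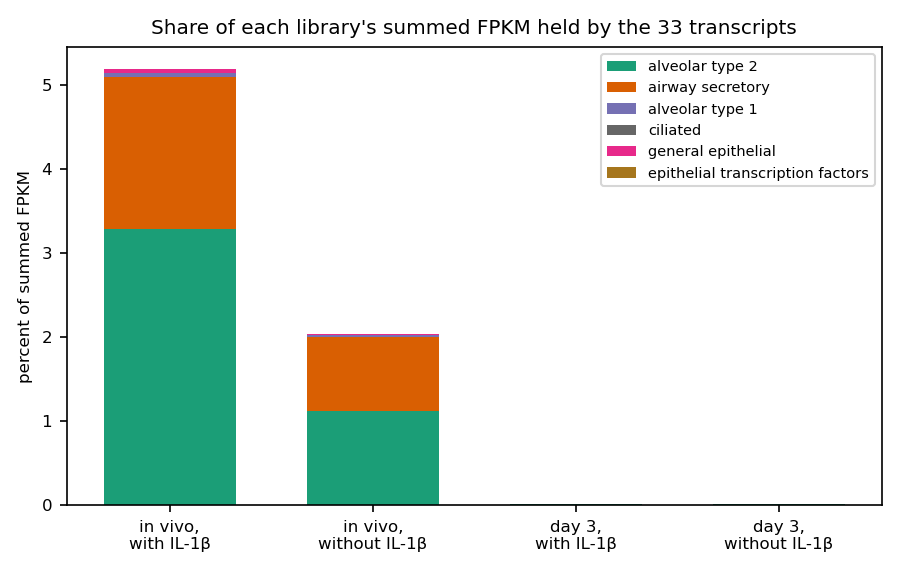
Stacked bars give the percent of each poly(A)-selected library's summed FPKM held by the 33 epithelial transcripts, coloured by role, with 1 library per bar. The bars reach 5.20% in vivo with IL-1β and 2.04% in vivo without it, and lie under 0.02% at day 3.

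The alveolar type 2 group includes the 4 surfactant protein genes. Sftpc (mm9 chr14:70920749-70923888), which encodes surfactant protein C, stood at 10010.5 FPKM in vivo with IL-1β and 3512 FPKM in vivo without, against 7.04 and 4.60 FPKM at day 3 with and without IL-1β. It was the most abundant of all symbols in the in vivo library with IL-1β and had rank 3 in the one without. Sftpb, for surfactant protein B, stood at 900 FPKM in vivo with IL-1β and 202 FPKM in vivo without, against 0.362 and 0.330 FPKM at day 3 with and without. Sftpa1, for the collectin surfactant protein A, stood at 384 FPKM and 113 FPKM in vivo with and without IL-1β, against 0.706 and 0.429 FPKM at day 3. Sftpd, for the related surfactant protein D, stood at 201 FPKM in vivo with IL-1β and 61.0 FPKM without, and was listed at 0 in both day 3 libraries. All 4 surfactant genes thus lay highest in the in vivo library with IL-1β, next in the one without, and far below both in culture.

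To show the regulatory sequence around these transcripts, the promoter is given for the 2 most abundant alveolar type 2 and the 2 most abundant airway secretory transcripts in vivo that the RefSeq promoter table holds, from 250 bases before to 50 after the gene start on GRCm38.p6, 5′ to 3′ on the gene's strand. Sftpb lies at chr6:72304360-72304659 (plus strand), Sftpa1 at chr14:41131538-41131837 (plus), Cbr2 at chr11:120731972-120732271 (minus) and Wfdc2 at chr2:164562465-164562764 (plus). Capitals mark exact matches, on either strand, to the motifs searched: CAAGTG (NKX2-1), TGTTTAC (FOXA), TTGCNNAA (C/EBP) and TATAAA.
Sftpb: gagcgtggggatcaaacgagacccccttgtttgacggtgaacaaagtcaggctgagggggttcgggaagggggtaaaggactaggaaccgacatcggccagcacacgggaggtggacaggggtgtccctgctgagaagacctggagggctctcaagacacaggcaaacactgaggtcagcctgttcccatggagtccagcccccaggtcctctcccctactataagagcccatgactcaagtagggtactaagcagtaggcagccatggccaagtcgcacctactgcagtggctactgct
Sftpa1: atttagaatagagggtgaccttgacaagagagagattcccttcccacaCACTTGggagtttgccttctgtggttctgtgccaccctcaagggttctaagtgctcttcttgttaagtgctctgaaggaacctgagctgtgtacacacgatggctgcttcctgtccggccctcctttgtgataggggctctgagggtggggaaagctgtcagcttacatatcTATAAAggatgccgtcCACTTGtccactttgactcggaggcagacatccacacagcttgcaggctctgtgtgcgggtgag
Cbr2: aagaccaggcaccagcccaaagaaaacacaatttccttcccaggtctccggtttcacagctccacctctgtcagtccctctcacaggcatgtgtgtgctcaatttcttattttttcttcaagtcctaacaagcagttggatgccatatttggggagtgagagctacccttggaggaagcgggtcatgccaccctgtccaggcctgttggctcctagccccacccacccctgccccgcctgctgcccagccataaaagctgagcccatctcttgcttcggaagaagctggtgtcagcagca
Wfdc2: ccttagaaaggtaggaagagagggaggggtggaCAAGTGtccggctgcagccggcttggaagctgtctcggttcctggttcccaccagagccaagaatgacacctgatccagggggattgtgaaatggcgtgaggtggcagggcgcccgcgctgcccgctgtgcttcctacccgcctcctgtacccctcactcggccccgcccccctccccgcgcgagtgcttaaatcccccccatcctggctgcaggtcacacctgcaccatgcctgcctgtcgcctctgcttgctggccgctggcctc

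The table matched 25 of the 33 transcripts. Of these 25 promoters 5 held CAAGTG (Cyp2f2, Elf3, Scgb3a1, Sftpa1 and Wfdc2), or 20.0%, against 13.5% of 27025 promoters of the same length. TGTTTAC (Lamp3 and Pdpn) stood in 2 of the 25 and in 3.55% of all, TTGCNNAA in 1 and in 10.8%, and TATAAA in 5 and in 14.2%. Sftpb and Cbr2 had none of these letters in the window shown.

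Of the other alveolar type 2 transcripts, 4 had under 2 FPKM in each day 3 library. Cxcl15, a chemokine made by lung epithelium, stood at 204 FPKM in vivo with IL-1β and 50.2 FPKM in vivo without, against 0.315 FPKM and a listed 0 at day 3. Slc34a2, the phosphate transporter of type 2 cells, stood at 152 and 35.6 FPKM in vivo with and without IL-1β, and Napsa, a protease that processes surfactant protein B, at 115 and 34.0 FPKM. At day 3 with and without IL-1β, Slc34a2 was at 0.153 FPKM and 0, and Napsa at 1.90 and 1.73 FPKM. Lamp3, a protein of the lamellar bodies that store surfactant, stood at 43.1 and 11.6 FPKM in vivo with and without IL-1β, against 0.482 and 0.351 FPKM at day 3. All 4 stood at more than 3 times the level in vivo with IL-1β that they had in vivo without.

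Abca3 and Lpcat1, like Sftpc, had more than 2 FPKM in both day 3 libraries. Abca3, a lipid transporter of lamellar bodies, stood at 25.4 and 13.3 FPKM in vivo with and without IL-1β, against 2.56 and 7.15 FPKM at day 3. Lpcat1, an enzyme that makes surfactant phosphatidylcholine, stood at 53.4 and 20.3 FPKM in vivo with and without IL-1β, against 13.8 and 18.5 FPKM at day 3. Without IL-1β the in vivo level of Lpcat1 exceeded that at day 3 by 1.75 FPKM, and with IL-1β by 39.6 FPKM. At 1 h with and without IL-1β, Abca3 stood at 0.737 and 1.17 FPKM, Lpcat1 at 2.52 FPKM and 0, and Napsa at 1.38 FPKM and 0; no other of the 33 was above 0 at 1 h. Abca3 overlaps the entry D330041H03Rik in mm9, so its fragments could be shared.

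Airway secretory transcripts were present beside the alveolar ones. Scgb1a1 (mm9 chr19:9158132-9162446), the secretoglobin of club cells, stood at 5710 FPKM in vivo with IL-1β and 2736 FPKM in vivo without, against 4.52 and 6.25 FPKM at day 3 with and without. It had rank 2 of all symbols in the in vivo library with IL-1β and rank 6 in the one without. Sftpc and Scgb1a1 together held 82.2% of the epithelial FPKM in vivo with IL-1β and 84.8% in vivo without. Cbr2, a carbonyl reductase abundant in lung, stood at 492 and 181 FPKM in vivo with and without IL-1β, against 0 and 0.675 FPKM at day 3. Wfdc2, a secreted protease inhibitor-like protein, stood at 191 and 93.5 FPKM in vivo with and without IL-1β, against 1.19 FPKM and 0 at day 3. Cyp2f2, a cytochrome P450 of club cells, stood at 94.8 and 42.0 FPKM in vivo with and without IL-1β, against 0.374 and 0.341 FPKM at day 3. These 4 lay between 2 and 3 times as high in vivo with IL-1β as without.

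The other 3 secretory transcripts were listed at 0 in both day 3 libraries and lay closer together in vivo. Bpifa1, a secreted lipid-binding protein of the upper airway, stood at 95.1 FPKM (interval 63.1 to 96.8) in vivo with IL-1β and 76.5 FPKM (51.0 to 82.4) without. The secretoglobin gene Scgb3a1 stood at 56.4 and 37.3 FPKM in vivo with and without IL-1β, and Scgb3a2 at 35.4 and 19.4 FPKM. For each of the 3 the intervals of the in vivo libraries overlapped.

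Among alveolar type 1 transcripts, Ager, the receptor RAGE of the type 1 cell's basal membrane, stood at 137 and 41.5 FPKM in vivo with and without IL-1β, against 4.66 and 6.15 FPKM at day 3. Aqp5, a water channel, stood at 18.7 and 10.0 FPKM in vivo with and without IL-1β and was at 0 in both day 3 libraries. Hopx, a homeodomain protein that T helper cells also express, stood at 29.7 and 22.7 FPKM in vivo with and without IL-1β, against 24.4 and 11.0 FPKM at day 3, and these intervals overlapped between in vivo and day 3 in both arms. Pdpn (podoplanin) stayed at 2.23 FPKM or less in the 4 poly(A)-selected libraries. The type 1 list thus held 2 transcripts with a clear in vivo excess in both arms, Ager and Aqp5.

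Transcripts of epithelia in general did not exceed 51.5 FPKM in any library. The membrane mucin Muc1 stood at 51.5 and 8.67 FPKM in vivo with and without IL-1β, the tight junction gene Cldn3 at 37.4 and 11.5 FPKM, and Cldn18, a claudin of alveolar and gastric epithelium, at 28.8 and 7.93 FPKM. At day 3 these 3 did not exceed 0.298 FPKM, and Cldn3 overlaps the entry Wbscr25. The keratin genes Krt7, Krt8, Krt18 and Krt19, which encode the intermediate filaments of simple epithelia, lay between 8.83 and 13.2 FPKM in vivo with IL-1β and between 2.21 and 7.92 FPKM in vivo without. Cdh1, for E-cadherin, stood at 8.29 and 2.66 FPKM in vivo with and without IL-1β. Epcam, a surface marker used to sort epithelial cells, stood at 4.86 and 1.14 FPKM, and the transcription factor genes Foxa2 and Elf3 at 3.97 and 2.80 FPKM with IL-1β and 1.10 and 0.814 FPKM without. Foxj1, the regulator of motile cilia, stood at 2.03 FPKM (0.787 to 3.41) and 1.18 FPKM (0.270 to 2.16) in vivo, against 0.765 and 0.697 FPKM at day 3.

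**Figure D2:**
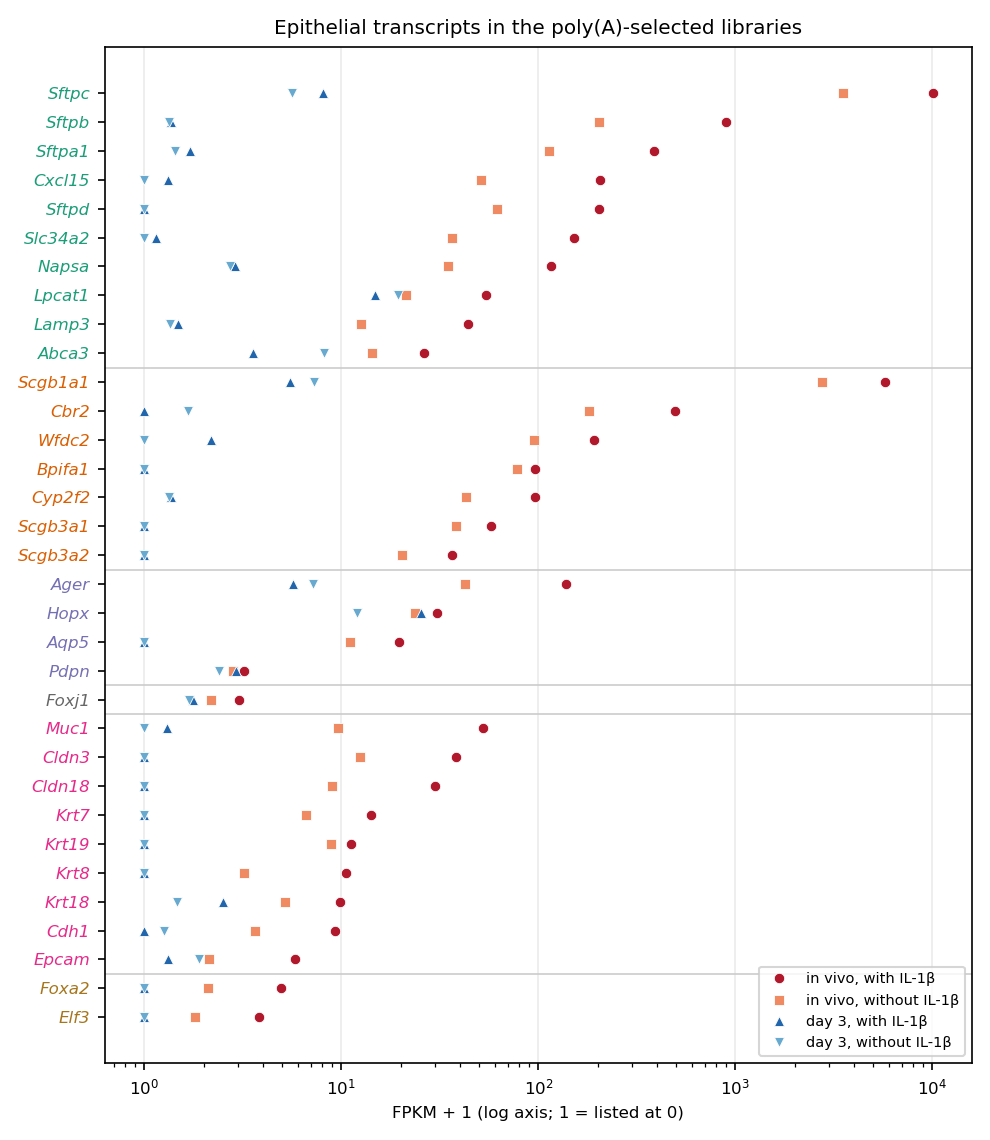
Each row is 1 transcript, with names coloured and lines drawn by role (from the top: alveolar type 2, airway secretory, alveolar type 1, ciliated, general epithelial, transcription factors), and each mark is its FPKM + 1 in 1 library on a log axis, where 1 means listed at 0. The in vivo library with IL-1β lies to the right of the one without in all 33 rows, and 12 transcripts were at 0 in both day 3 libraries.

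The comparison of in vivo with day 3 libraries addressed how far epithelial RNA levels in vivo exceeded those at day 3. It does not show which cells held that RNA. A transcript was counted as higher or lower when (FPKM + 1) differed at least 2-fold, the larger value reached 5 FPKM and the intervals did not overlap; those whose larger value reached 5 FPKM are called compared. With IL-1β, 28 of the 33 were compared, 27 were higher in vivo and none was lower, where 12.0% of 8572 compared symbols were higher and 5.87% lower. Without IL-1β, 25 were compared, 22 were higher and none was lower, where 2.13% of 8126 compared symbols were higher and 0.665% lower. These comparisons share the in vivo and day 3 libraries with those that follow. The compared transcript outside the count with IL-1β was Hopx, and those outside it without IL-1β were Hopx, Abca3 and Lpcat1. These contrasts were among those that chose the 33, so the counts describe the choice. At day 3, only 3 of the 33 reached 5 FPKM with IL-1β and 5 without. Most compared transcripts thus passed the 5 FPKM floor only through the in vivo library, where they were high, so the counts carry no test.

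The median log2 ratio of in vivo over day 3 was 4.90 with IL-1β (33 transcripts reaching 1 FPKM in either library) and 3.37 without (32 transcripts), beside 0.16 and 0.01 over all symbols. With transcripts listed at 0 left out, it was 5.32 over 19 with IL-1β and 2.57 over 17 without. The day 3 level was 0.0703% of the in vivo level for Sftpc with IL-1β and 0.131% without, and 0.0792% and 0.228% for Scgb1a1. For Hopx it was 82.2% and 48.5%, and for Lpcat1 25.9% and 91.4%, in the arms with and without IL-1β. Sftpc at day 3 had an interval of 2.27 to 11.3 FPKM with IL-1β and of 1.37 to 7.56 FPKM without, so that it did not reach 0. At day 3 none of 6 compared transcripts was higher with IL-1β than without, where 1.29% of 7962 symbols were, with no test since each group had 1 library. Abca3 was lower, as were 2.15% of compared symbols.

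In the comparison of the in vivo libraries, the FPKM of each of the 33 transcripts was larger in the one with IL-1β. For Hopx and Pdpn most of that level was also present at day 3 with IL-1β (82.2% and 86.8%). The in vivo excess of Hopx over day 3 was 5.28 FPKM with IL-1β and 11.7 FPKM without, and that of Pdpn 0.295 and 0.399 FPKM. Of 28 compared transcripts, 19 were higher with IL-1β and none was lower, where 6.23% of 8639 compared symbols were higher and 3.48% lower. The median log2 ratio over the 33 was 1.34, beside 0.08 over all symbols, and the summed FPKM was 2.60 times as high. The FPKM ratio itself ran from 1.23 (Pdpn) to 5.93 (Muc1), with a median of 2.85. Krt8, Krt18 and Cdh1 passed the 5 FPKM floor only through the library with IL-1β, and Krt8 and Cdh1 were among those counted. With 1 library per group, these differences have no replicate check.

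The ratios are described here by role. Beside the counts by role, 6.23% of all 8639 compared symbols were higher with IL-1β and 3.48% lower. The alveolar type 2 group had 9 of 10 transcripts higher and a median FPKM ratio of 3.39, from 1.92 (Abca3) to 4.45 (Sftpb). Airway secretory transcripts had 4 of 7 higher (Scgb1a1, Cbr2, Wfdc2 and Cyp2f2) and a median of 2.04, from 1.24 (Bpifa1) to 2.72 (Cbr2). Type 2 transcripts other than Abca3 and Lpcat1 had ratios above all 7 secretory ones. General epithelial transcripts had 5 of 8 compared higher (Muc1, Krt8, Cdh1, Cldn3 and Cldn18) and a median of 3.26 over 9, and alveolar type 1 transcripts 1 of 3 (Ager) and a median of 1.59 over 4. The difference between roles was not tested, since the transcripts were chosen with these values known and share the same pair of libraries.

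The deposited bounds give a lowest and a highest ratio for each transcript, which describe single libraries at an unstated level. The FPKM lay above its own interval for Sftpc, Scgb1a1, Sftpb, Sftpd, Cbr2 and Wfdc2 with IL-1β and for Sftpc and Scgb1a1 without. The ranges of these 6 are therefore doubtful, and their FPKM in those libraries are uncertain. Their bounds still enter the counting rule, the tolerance for the summed FPKM and the counts that follow. Over the 33, the range held the median of 2.85 for 25, lay above it for 4 and below it for 4. Sftpb was among the 4 above and Scgb1a1 among the 4 below. Muc1 had a range of 3.36 to 11.4, Slc34a2 of 3.25 to 5.54, Abca3 of 1.38 to 2.70 and Hopx of 0.630 to 2.82. By FPKM alone, Sftpc stood at 1.75 times the level of Scgb1a1 in vivo with IL-1β and at 1.28 times in vivo without.

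**Figure D3:**
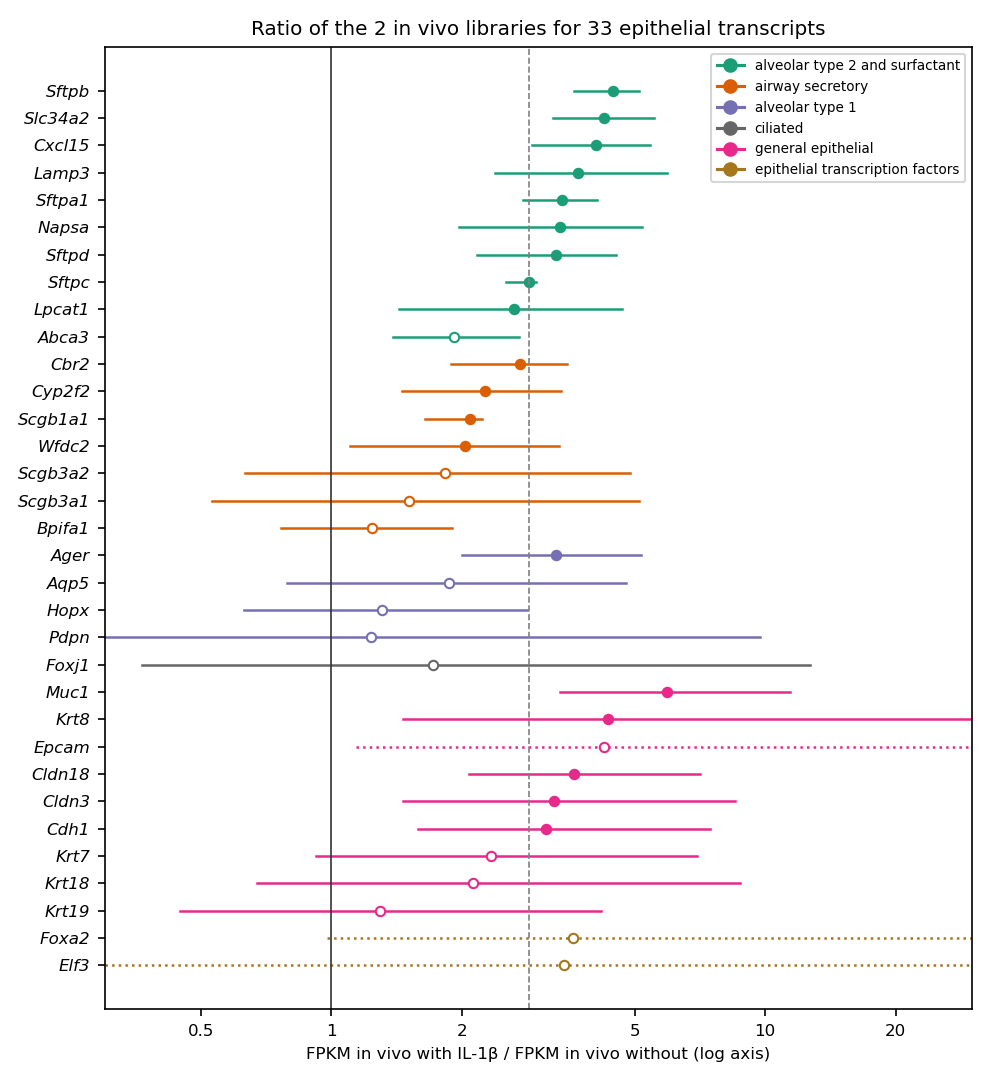
Points give the FPKM ratio of the in vivo library with IL-1β over the one without on a log axis, coloured by role, filled where the transcript was counted as higher, with lines spanning the lowest and highest ratio that the deposited intervals allow (dotted where the lower bound without IL-1β is 0; lines are clipped at 0.3 and 30). The dashed line is the median of 2.85; 8 of 10 alveolar type 2 points lie on it or to its right, with Lpcat1 and Abca3 to its left, and all 7 airway secretory points lie to its left.

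The order of the transcripts by level was much the same in both in vivo libraries, with a Spearman correlation of 0.96 over the 33 FPKM values (genes of the same libraries, not independent replicates). Against 14 T cell identity genes, whose summed FPKM was 3238 and 3480 in vivo with and without IL-1β, the summed epithelial FPKM was 5.91 and 2.12 times as high in vivo and 0.0176 and 0.0170 times at day 3 with and without IL-1β. None of the T cell genes was counted either way in vivo, and their median log2 ratio was -0.06. Among them, Thy1, Cd2, Lat, Cd3e and Cd3g had FPKM above their own intervals in both in vivo libraries. Sequencing depth cannot be read directly. The scaling that best fitted the FPKM steps of low genes put 1 fragment at 0.984 times as much in vivo with IL-1β as without. At that scaling 69.6% of 934 symbols under 1 FPKM in both libraries lay within 2% of the step pattern, against a median of 2.36% over scalings. The scaling was chosen for its highest percentage, so this gap alone does not check it. 

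Further epithelial genes, which are not among the 33, were looked up from lists by cell type. Of 103 matched genes in 6 such lists, 51 were compared in vivo, 27 were higher with IL-1β and none was lower. Many of the 27, among them Nkx2-1, Aldh1a1, Aox3 and Reg3g, passed the 5 FPKM floor only through the library with IL-1β, where they were high. These counts therefore carry no test and are no independent check of the 33. Over all 8639 compared symbols, 6.23% were higher and 3.48% lower, which is the share to set beside each list. Other alveolar type 2 genes had 14 of 19 compared higher. Among them Lyz1, a lysozyme, stood at 123 and 35.0 FPKM in vivo with and without IL-1β, and the cathepsin gene Ctsh at 59.1 and 14.5 FPKM. Scd1, a fatty acid desaturase, stood at 155 and 55.2 FPKM in vivo, and at 14.0 and 23.2 FPKM at day 3. Nkx2-1, the lung lineage transcription factor gene of the same list, stood at 15.8 and 2.75 FPKM in vivo with and without IL-1β and was at 0 in both day 3 libraries (named after its value was seen). Fasn of that list, also named after its value was seen, went the other way and was not counted. It stood at 40.6 FPKM (36.8 to 44.3) in vivo with IL-1β and 51.6 FPKM (47.4 to 55.8) without. Of the listed genes reaching 1 FPKM in vivo, 1 had a log2 ratio below 0, and that was Fasn. Npc2, a cholesterol-binding protein that T cells also express, stood at 152 and 126 FPKM in vivo with and without IL-1β and was not counted.

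Other alveolar type 1 genes had 8 of 10 compared higher. The caveolin gene Cav1 stood at 36.9 and 16.1 FPKM in vivo with and without IL-1β, and Emp2, a tetraspan membrane protein, at 25.0 and 9.75 FPKM. The growth factor gene Vegfa stood at 28.7 and 10.9 FPKM in vivo, and at 21.8 and 14.1 FPKM at day 3. Without IL-1β, the Vegfa value was lower in vivo than at day 3, but its in vivo interval (7.49 to 14.4 FPKM) held the day 3 value. Clic3, at 27.1 and 9.81 FPKM, was not counted. Other airway secretory genes had 3 of 8 higher, Aldh1a1, Aox3 and Reg3g; Aldh1a1, a retinal dehydrogenase, stood at 18.2 and 4.25 FPKM, Aox3 at 5.76 and 1.18 FPKM, and Reg3g at 5.16 FPKM against a listed 0. Cyp4b1 (18.8 and 10.6 FPKM), Bpifb1 (11.9 and 5.94 FPKM) and Gsto1 (25.3 and 17.2 FPKM) of that list were not counted. Gsto1 also stood at 23.7 and 12.7 FPKM at day 3 with and without IL-1β.

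Ciliated cell genes had 1 of 5 compared higher, Sec14l3 at 17.7 and 8.27 FPKM in vivo with and without IL-1β, while Tppp3 stood at 27.1 and 18.4 FPKM, Fam183b at 8.67 FPKM against a listed 0, and Tuba1a, a tubulin that T cells express, at 127 and 202 FPKM. Other general epithelial genes had 1 of 9 higher, Llgl2 at 8.43 and 3.57 FPKM, while Spint2 (78.1 and 78.2 FPKM), Lad1 (57.5 and 60.9 FPKM), Cd24a (18.1 and 10.5 FPKM) and Pkp3 (9.67 and 14.7 FPKM) were not counted. Of these 4, Spint2, Lad1 and Pkp3 had at least 17.2 FPKM at day 3 in both arms. With 1 gene counted in each, the ciliated and general epithelial lists are not read as differing from the 6.23% over all compared symbols. Basal and neuroendocrine cell genes, 8 in number, did not exceed 0.544 FPKM in vivo. At least 1 FPKM in either in vivo library was reached by 19 of 24 other general epithelial genes, 15 of 20 other secretory, 19 of 20 other type 2, 13 of 15 other type 1 and 10 of 16 ciliated cell genes.

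Of the genes of other organs, 2 reached 5 FPKM in vivo, Lgals4 and Tg. Those of liver, kidney and skin did not exceed 1.10 FPKM in vivo, and all 5 kidney genes were listed at 0 in both in vivo libraries. Of the intestine list Lgals4 stood at 10.2 and 12.1 FPKM in vivo with and without IL-1β, and at 13.2 and 14.7 FPKM at day 3. Of the thyroid and pancreas list Tg, the thyroglobulin gene, stood at 5.21 and 12.8 FPKM in vivo, lower with IL-1β, and at 15.7 and 10.5 FPKM at day 3. No other gene of the intestine, thyroid and pancreas lists exceeded 0.215 FPKM in vivo.

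Markers of other cell types were counted in the same way, with unequal results. The share over all 8639 compared symbols was 6.23% higher with IL-1β and 3.48% lower. Some of the genes counted here, among them Col1a1, Tie1 and Csf1r, passed the 5 FPKM floor only through the library with IL-1β, so these counts carry no test. Endothelial genes had 9 of 15 compared higher in vivo with IL-1β and a median FPKM ratio of 2.69 over 18, and the adrenomedullin receptor partner Ramp2 stood at 55.5 and 12.0 FPKM in vivo with and without it. Stromal genes had 13 of 15 higher and a median ratio of 9.59 over the 14 above 0 in both libraries. The matrix gene Mgp stood at 266 and 36.0 FPKM in vivo with and without IL-1β, the secreted peroxidase gene Gpx3 at 171 and 7.42 FPKM, and the methyltransferase gene Inmt at 164 and 18.5 FPKM. Myeloid genes had 3 of 14 higher and a median ratio of 1.81 over 19, the lysozyme gene Lyz2 at 1614 and 521 FPKM, the invariant chain gene Cd74 at 596 and 281 FPKM and the receptor gene Csf1r at 10.3 and 1.91 FPKM in vivo with and without IL-1β. The FPKM of Lyz2 lay above its own interval in both in vivo libraries, as did that of S100a8 and S100a9. Mgp and Inmt exceeded theirs in vivo with IL-1β. Over all symbols this held for 309 in vivo with IL-1β and 259 without. The other 11 compared myeloid genes were not counted. Among these, the antigen presentation genes H2-Aa and H2-Ab1 stood at 152 and 151 FPKM in vivo with IL-1β and at 83.9 and 82.5 FPKM without. The neutrophil genes S100a9, S100a8 and Csf3r, and the ribonuclease gene Ear2 (these 4 named after their values were seen), stood at 116, 107, 5.53 and 11.6 FPKM in vivo with IL-1β and at 117, 107, 9.96 and 14.4 FPKM without. B cell genes had 0 of 3 compared higher and 1 lower (Cd79b, at 7.85 and 23.8 FPKM), and erythroid genes 1 of 3 higher, Hba-a2, at 116 FPKM against a listed 0, whose near-identical copy Hba-a1 stood at 524 and 357 FPKM and can share its fragments. Stromal genes thus had a median ratio above that of the 33 epithelial transcripts, and myeloid genes one below; these differences were not tested. The part of these other cell types in the epithelial result was not tested.

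**Figure D4:**
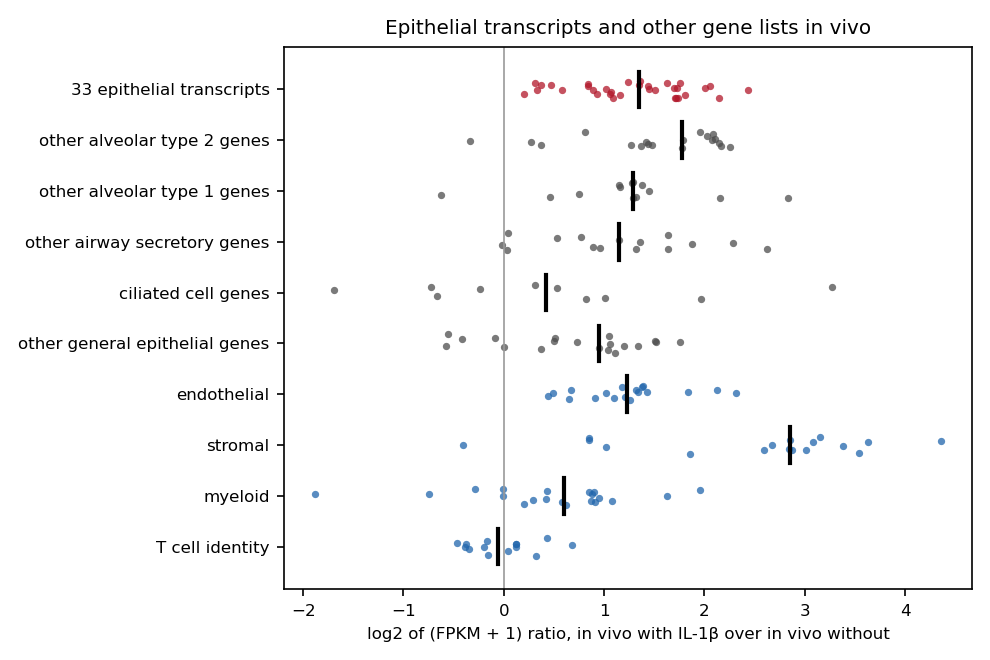
Each point is 1 gene with at least 1 FPKM in 1 of the in vivo libraries, at its log2 ratio of (FPKM + 1) in vivo with IL-1β over in vivo without, and black bars mark list medians (points are spread vertically for legibility). The 33 epithelial transcripts have a median of 1.34, endothelial genes 1.23, stromal genes 2.85, myeloid genes 0.60 and T cell identity genes -0.06.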

How the data were processed

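TopHat and build mm9 are named in the submitters' processing notes, without versions or a quantifier. Per the file headers, the authors deposited FPKM per gene with a lower and an upper bound, 1 file per library with 23700 entries. The 285 entries with a status other than OK were left out and entries sharing a symbol (190 symbols) were summed, which gave 23091 symbols. FPKM and bounds were used as deposited, and the labels give no absolute depth.

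The 4 comparisons were in vivo with IL-1β against without, in vivo against day 3 in each arm, and day 3 with IL-1β against without. Ratios carry a pseudocount of 1 FPKM on the log2 scale. Each symbol passed the counting rule or not; no p-value was computed, since each group holds 1 library. Medians cover symbols that reach 1 FPKM in either library. Transcripts with at least 20 FPKM in an in vivo library are given in every poly(A)-selected library. For the 17 other lists, up to 4 of the highest genes in vivo are given, and every counted gene where 3 or fewer were counted; exceptions are marked. The members and lists were chosen with earlier results of these data known. The counting rule was run on simulated data. Both simulated libraries were drawn from the bounds of 1 library, without variation between libraries, and each simulated interval held its own FPKM. The simulation therefore cannot show how often the rule errs in these data. Transcript lengths came from GENCODE M21 by symbol, and promoters from the RefSeq table (GRCm38.p6). Python 3.11.15, numpy 2.4.6, pandas 2.3.3, statsmodels 0.14.6 and matplotlib 3.10.9 were used.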

Additional observations from a re-analysis of the deposited data

Results flagged for a closer look

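Of the 6 transcripts that reached 5 FPKM in a day 3 library, 4 had a log2 ratio of with over without IL-1β of opposite sign in vivo and at day 3. The difference between stages was not tested, since each group holds 1 library. The log2 ratio of (FPKM + 1) for Abca3 was 0.89 in vivo and -1.19 at day 3, 2.08 apart. Lpcat1 stood at 1.36 in vivo and -0.40 at day 3, 1.75 apart. Ager was at 1.69 in vivo and -0.34 at day 3, 2.03 apart. For Scgb1a1 the ratios were 1.06 in vivo and -0.39 at day 3, 1.45 apart. Of the day 3 ratios, that of Abca3 met the counting rule and the other 3 did not. Signs were also opposite for 3 transcripts under 1 FPKM in both day 3 libraries. Cbr2 had 1.44 in vivo and -0.74 at day 3, Epcam 1.45 and -0.51, and Cdh1 1.34 and -0.34.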

How the results depend on the processing

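Across 9 results and 86 alternatives, 78 stayed within the tolerance (1.5 times for a count, the range of the deposited intervals for a median or sum), 8 moved and 0 changed direction. The in vivo count of 19 ran from 17 (pseudocount of 5, or interval midpoints in place of FPKM) to 20 (a floor of 1 FPKM, no floor, or no condition on intervals). Wfdc2 was lost with a pseudocount of 5, with midpoints and with the length trend removed, Cdh1 with a pseudocount of 5 and Scgb1a1 with midpoints. The summed FPKM ratio of 2.60 became 3.20 over the transcripts under 1 FPKM in both day 3 libraries. Without Sftpc and Scgb1a1, an alternative chosen after seeing the data, it became 3.04. The in vivo over day 3 median with IL-1β became 7.05 with a pseudocount of 0.1 and 3.08 with a pseudocount of 5, and without IL-1β 6.39 and 1.68, since many day 3 values are 0. At day 3 the count of 0 became 1 (Hopx) with no condition on intervals and with T cell identity genes scaled to a ratio of 1. No paired analysis was possible because each group holds 1 library. Values listed at 0 have no limit here, since absolute depth is unknown, and day 3 levels under 1 FPKM have intervals that reach 0 or nearly so.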

Other observations

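Among symbols outside all lists and under 1 FPKM in both day 3 libraries, the 10 with the highest mean in vivo were as follows. Sfta2, a surfactant-associated protein gene, stood at 84.4 FPKM in vivo with IL-1β and 20.3 FPKM in vivo without, a ratio of 4.16, and Rnase4, a secreted ribonuclease gene, at 68.6 and 15.1 FPKM (4.55). The binding protein gene Igfbp7 stood at 65.3 and 21.9 FPKM in vivo with and without IL-1β (2.98), the lipid transfer gene Pltp at 48.2 and 17.7 FPKM (2.72) and the tetraspanin gene Tspan7 at 50.2 and 14.0 FPKM (3.59). The complement gene C1qb stood at 50.1 and 11.7 FPKM (4.26), and Fosb, an immediate early transcription factor gene, at 61.8 and 9.61 FPKM (6.43). All 7 were counted as higher with IL-1β. The FPKM of Sfta2 with IL-1β lay above its own upper bound of 72.2 FPKM. Hp, the haptoglobin gene, stood at 46.3 and 36.9 FPKM (1.26) and was not counted.

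The other 2 of the 10 rest on 1 library each. The pseudogene Atp6v0c-ps2 stood at 159 FPKM in the in vivo library given IL-1β and at a listed 0 in the other. The small nucleolar RNA Snora17 was listed at 0 with IL-1β and at 1689 FPKM without, far above its own interval of 0 to 36.8 FPKM.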
